A study of Mus musculus with 2 samples.

Results

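The standard library of C2C12 nuclei was examined for what its droplets with many UMIs held and what its droplets with few UMIs held. C2C12 is a mouse myoblast line, and the nuclei were fixed in methanol before single-nucleus RNA-sequencing on droplets, in which each droplet carries a cell barcode and each captured RNA molecule a unique molecular identifier (UMI). Barcodes were chosen by their UMI total alone: 1123 barcodes with over 750 UMIs stood for nuclei, and 226358 barcodes with 1 to 100 UMIs stood for droplets that caught free RNA. These were taken from 277095 barcodes of the standard library and 722348 of the whole series. Genes were described by the log2 ratio of their CPM (counts scaled to a common library total) in the pooled nuclei over their CPM in the pooled low-UMI barcodes, for the 7739 of 55414 genes with at least 50 UMIs in both pools together.

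The series held 2 groups of 1 library each. The standard nuclei were counted directly after wash buffer was added, with no enzyme and no warm incubation. The nuclei of the other library were incubated with yeast poly(A) polymerase, which adds adenines to free RNA ends, and are called in situ polyadenylated here. Both libraries came from the same cell line. There was no second standard library, so no difference below was tested against a spread between replicates. Every 95% interval of a ratio or share covers counting error only. Genes were picked out by the ratio of the pools itself, so their ratios are given as a description, with no test.

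In a cell, messenger RNAs are spliced and exported, and translated in the cytosol or at the endoplasmic reticulum. Some long noncoding RNAs stay in the nucleus: Malat1 and Neat1 belong to nuclear speckles and paraspeckles, Xist coats the inactive X chromosome and Kcnq1ot1 is an imprinted chromatin-associated transcript. When cells are lysed, cytosolic and mitochondrial RNA spills into the suspension and is caught in droplets that have no nucleus. The droplet assay captures RNA with an oligo(dT) primer, which pairs with poly(A) tails and also with runs of A inside an RNA.

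Since the primer can also pair with A runs, the longest run of A in the annotated transcript is shown for RNAs that the results turn on. Each is given as 30 bases read 5′ to 3′ from the GENCODE M39 transcripts on GRCm39, with the run in capitals. Where the primer paired was not tested. Malat1, the most abundant lncRNA of the library, holds 12 A at chr19:5846007-5846036 on the minus strand, in its only exon. Mt-Rnr2 is the large mitochondrial ribosomal RNA, and its window lies at chrM:1477-1506 on the plus strand. Rn18s-rs5 carries the 18S ribosomal RNA sequence, and its window lies at chr17:40158046-40158075 on the plus strand. Ttn encodes the giant muscle protein titin, and its window lies at chr2:76534426-76534455 on the minus strand, in the untranslated part of exon 347. Zc3h13 encodes a member of the RNA methylation machinery, and its window is coding, at chr14:75567907-75567936 on the plus strand.
Malat1: cctagctttAAAAAAAAAAAAgcaaaagac
mt-Rnr2: ttaaacttgctAAAAAAAcaacaaaatcaa
Rn18s-rs5: gcgtttactttgAAAAAAttagagtgttca
Ttn: actgcccatAAAAAAAAAAAttactaattt
Zc3h13: gtattttcaccAAAAAAAggacagaagaag

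Other members are shown for the opposite reason, since part of their sequence is not theirs alone. Gm47164, a single-exon gene, and Gm17132 had the highest ratios of genes with at least 200 UMIs. They share 128 consecutive bases, and Gm47164 shares 70 with Kcnq1ot1. In all, 97.0% of the 31-base words of Gm47164 also occur in transcripts of 737 other genes. Gm42826, the lowest of the genes with at least 200 UMIs, shares 52 consecutive bases with Olfr607, the next lowest. The first 30 bases of each shared stretch are given in capitals, at chr10:103048297-103048326, chr10:103048648-103048677 and chr3:125012918-125012947, all on the minus strand.
Gm47164 with Gm17132: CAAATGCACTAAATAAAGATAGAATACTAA
Gm47164 with Kcnq1ot1: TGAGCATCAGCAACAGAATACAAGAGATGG
Gm42826 with Olfr607: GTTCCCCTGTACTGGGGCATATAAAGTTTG

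The nuclei held 1382984 UMIs, 13.1% of the library, with a median of 996 UMIs per nucleus. The low-UMI barcodes held 2394255 UMIs, 22.6% of the library, and 65.7% of them had a single UMI. Ranges written as over 100 to 300 UMIs leave out the lower limit. A further 28856 barcodes lay between the pools with 64.3% of the UMIs and were used by neither. No nucleus had 5% or more mitochondrial UMIs, and no nucleus barcode was shared between the libraries. Of the 1335 in situ polyadenylated nuclei, 562 had a barcode that was low-UMI in the standard library, and these barcodes held 0.0756% of the low-UMI UMIs. Across all barcodes 50944 were shared. The myoblast label was checked against its markers. Vim had 1314 UMIs in nuclei and 2676 in low-UMI barcodes, Des had 636 and 1282, and Myod1 had 13 and 29. Of markers of other cells, 3 of 7 immune, 3 of 5 endothelial, 1 of 6 epithelial, 3 of 5 neural and 1 of 4 fat cell genes were at 0 in both pools. The immune list summed to 4 and 19 UMIs with Ptprc at 4 and 11, the epithelial list to 11 and 37, and the fat cell list to 2 and 8. The endothelial Pecam1 had 35.0 and 83 UMIs.

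Low-UMI barcodes were not of a single kind. Above 10 UMIs, barcodes were most frequent at 21 to 30 UMIs, with 28894 in that range. There were 1663 at 51 to 60 UMIs and 2075 at 91 to 100 UMIs. Composition differed on either side of the same place. Malat1 made up 10.5% of UMIs in barcodes of 21 to 30 UMIs, 9.91% at 31 to 50, 6.37% at 51 to 75 and 6.61% at 76 to 100. Gm42826 was at 561 CPM at 31 to 50 UMIs and 137 CPM at 51 to 75, and Zc3h13 was at 1349 and 725 CPM. The 18S gene Rn18s-rs5 made up 27.2% at 21 to 30 UMIs and 31.8% at 51 to 75. Barcodes of 11 to 50 UMIs gave 62.9% of the low-UMI UMIs, those of 51 to 100 gave 29.7% and those of 1 to 10 gave 7.43%, so the pool mostly reflects the first of these ranges. On either side of the limits used, composition was close: Malat1 made up 6.89% of UMIs at 91 to 100 UMIs and 7.01% at over 100 to 110, and it made up 10.0% in the 176 barcodes within 50 UMIs below the limit for nuclei and 11.1% in the 159 within 50 above it.

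**Figure D1:**
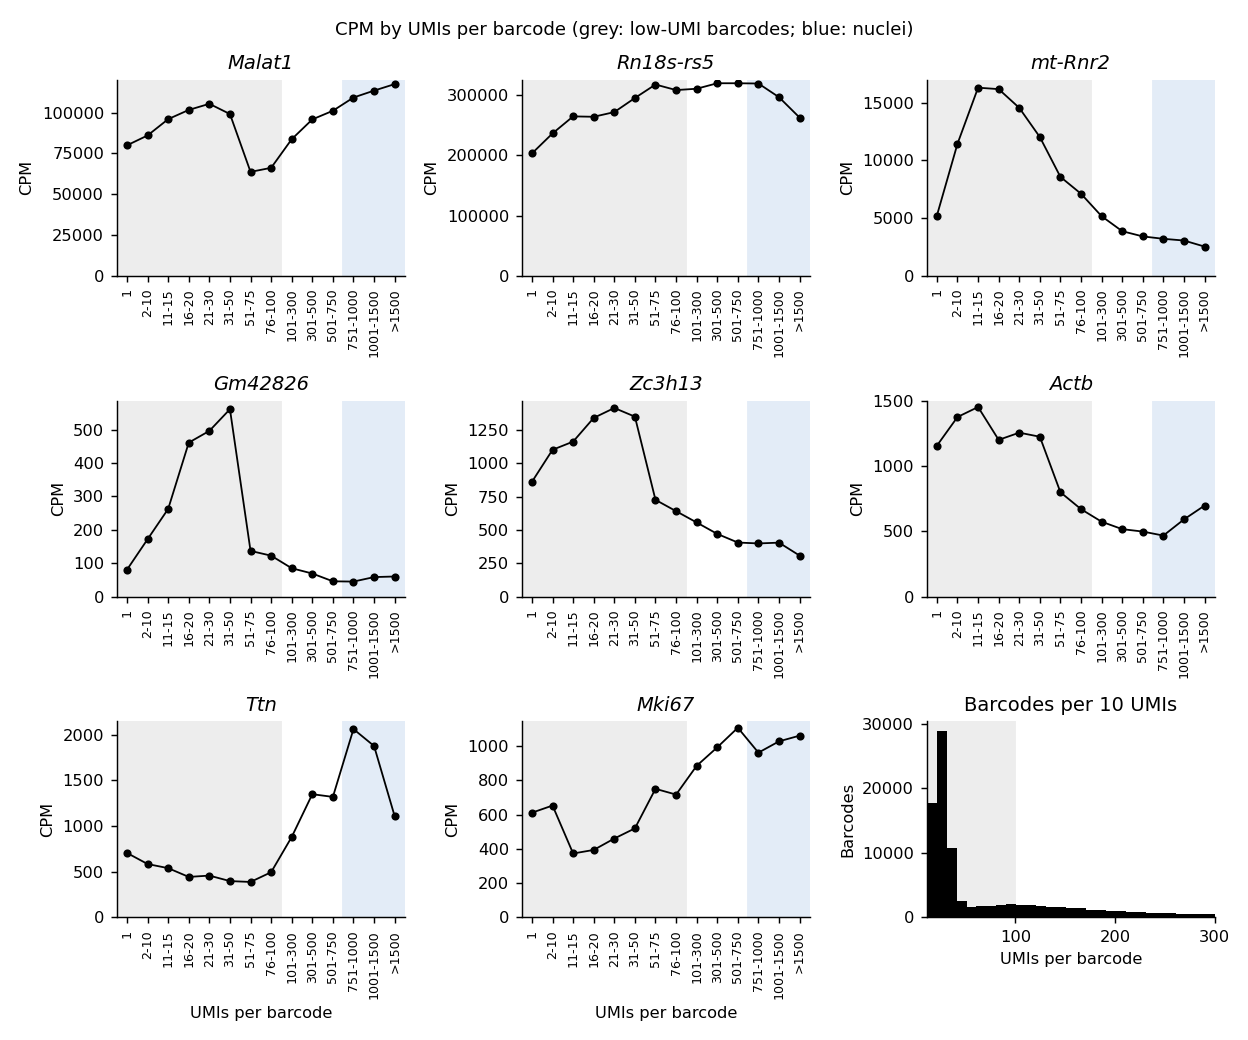
CPM of 8 genes (vertical axes, linear, from 0) against UMIs per barcode (horizontal axes, steps of the pooled barcodes, not to scale), with low-UMI barcodes shaded grey and nuclei blue, and the number of barcodes per 10 UMIs in the last panel. Malat1, Gm42826 and Zc3h13 are lower at 51 to 75 than at 31 to 50 UMIs, mt-Rnr2 is highest at 11 to 15 UMIs, and Ttn is highest at over 750 to 1000 UMIs.

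Of the 7739 genes, 93 (1.20%) were at least 2-fold higher in nuclei and 480 (6.20%) were at least 2-fold higher in low-UMI barcodes. The median log2 ratio was -0.19 over all genes, with quartiles of -0.52 and 0.13, and -0.18 over the 7412 protein-coding genes. A gene at 0 was therefore above the middle of the genes, and members of each list are also counted on either side of the protein-coding median or set against it. Members of a list that were past the fold are named where there were 5 or fewer, after their values were seen. Their numbers are to be read against the 1.20% and 6.20% over all genes. The interval lay wholly above 0 for 773 genes and wholly below 0 for 1902. It excluded 0 for each of the 93 and the 480, which adds no support, since they were picked by the same ratio. Only 24 and 82 of these had 200 or more UMIs. By class, 70 of the 93 and 393 of the 480 were protein-coding, 7 and 30 of 154 tested lncRNAs were past the fold, and so were 9 and 47 of 121 genes that the annotation marks as still to be experimentally checked (TEC). Near the limit of the fold among genes with at least 200 UMIs, Filip1l stood at 1.03 and Utrn at 0.99, and towards low-UMI barcodes Snhg1 (129 against 447 UMIs) was just past the limit and Lgals3 (175 against 605 UMIs) just short of it. At the limit of the gene minimum, 625 genes had 50 to 59 UMIs and 773 had 40 to 49.

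The choice of low-UMI barcodes set how many genes stood apart. These ranges were added after the break in composition was seen, except for over 100 to 500 UMIs. Against barcodes of 11 to 50 UMIs, 189 of 6850 genes (2.76%) were higher in nuclei and 565 (8.25%) lower. Against barcodes of 51 to 100 UMIs, 98 of 5257 (1.86%) were higher in nuclei and 76 (1.45%) lower. Against barcodes of over 100 to 500 UMIs, 104 of 9053 (1.15%) were higher in nuclei and 65 (0.718%) lower. Most of the surplus of genes on the low-UMI side was thus seen against barcodes of up to 50 UMIs.

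**Figure D2:**
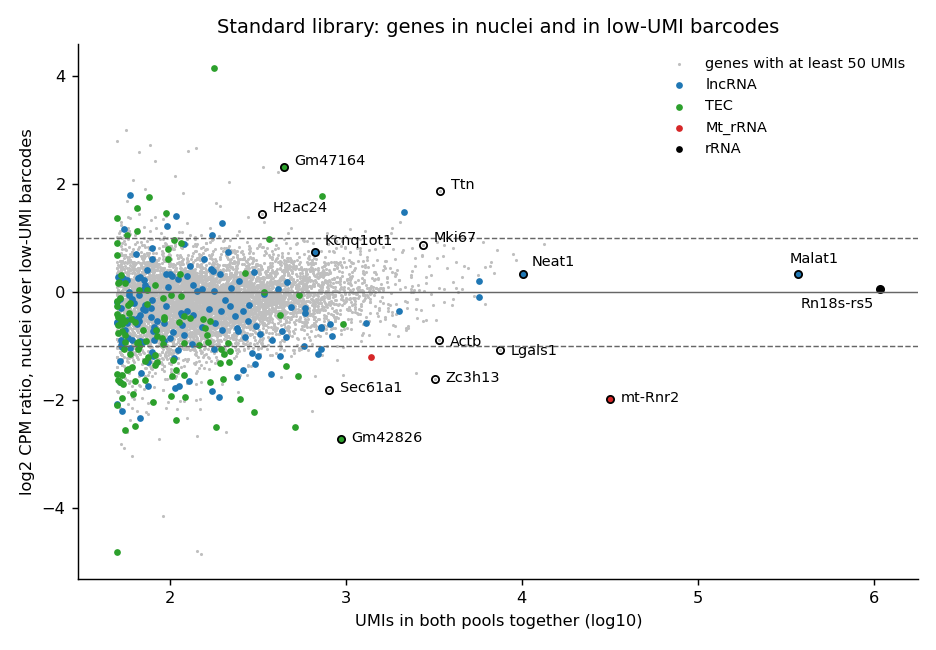
Each point is 1 gene, with the log10 of its UMIs in both pools on the horizontal axis and its log2 CPM ratio of nuclei over low-UMI barcodes on the vertical axis; dashed lines mark the 2-fold limits and genes with 0 UMIs in nuclei are drawn at the bound of 3 UMIs. Rn18s-rs5 lies at 0.052 and Malat1 at 0.34, while mt-Rnr2 at -1.98 stands far below genes of similar count.

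Protein-coding RNA made up 55.5% of UMIs in nuclei and 57.8% in low-UMI barcodes, a log2 ratio of -0.058. Ribosomal RNA, nearly all of it Rn18s-rs5, made up 29.3% and 28.3%, a log2 ratio of 0.052 (0.046 to 0.058). Its sign depends on the barcodes compared: it was -0.11 for nuclei of over 1500 UMIs and -0.089 against barcodes of 51 to 100 UMIs. Mitochondrial ribosomal RNA made up 0.313% and 1.21%, a log2 ratio of -1.94 (-1.99 to -1.90). Its share was 1.24% at 11 to 100 UMIs, 0.539% at over 100 to 300, 0.360% at over 500 to 750 and 0.276% in nuclei of over 1500 UMIs. The over 500 to 750 and over 100 to 300 UMI barcodes entered neither pool, and mt-Rnr2 differed between them by a log2 ratio of -0.60 (-0.65 to -0.55).

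Mitochondria thus showed an uneven picture. The large ribosomal RNA mt-Rnr2 had 4052 UMIs in nuclei and 27757 in low-UMI barcodes, 2930 and 11593 CPM, and the small one, mt-Rnr1, had 280 and 1118 UMIs, a log2 ratio of -1.21. The mitochondrially encoded mRNAs made up 0.0315% and 0.0363% of UMIs, a log2 ratio of -0.20 (-0.37 to -0.036). None of the 6 tested was past the fold. Mt-Nd1, a subunit of respiratory complex I, had 111 and 218 UMIs (-0.18), and mt-Cytb, of complex III, had 100 and 210 (-0.28). The direction of their median, -0.23, was set by barcodes of 1 to 10 UMIs, where the mRNAs made up 0.162% of UMIs: without these barcodes the median was 0.27. In the same 1 to 10 UMI barcodes mt-Rnr2 was at 6240 CPM, below its 12023 CPM at 11 to 100 UMIs.

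Long noncoding RNAs made up 13.1% of UMIs in nuclei and 10.9% in low-UMI barcodes, a log2 ratio of 0.26 (0.25 to 0.27). This rested on Malat1. Malat1 had 156729 UMIs in nuclei and 214886 in low-UMI barcodes, 113327 and 89751 CPM, and a log2 ratio of 0.34 (0.33 to 0.35). All nuclei had a Malat1 UMI, as did 33.0% of low-UMI barcodes. These shares cannot be compared, since nuclei had a median of 996 UMIs and 65.7% of low-UMI barcodes had a single UMI. Without Malat1 the class was at 1.76% and 1.97%, a log2 ratio of -0.16, or 0.021 relative to the protein-coding median. The Malat1 ratio was 0.15 against barcodes of 11 to 50 UMIs and 0.80 against those of 51 to 100. Between barcodes of over 500 to 750 and over 100 to 300 UMIs it was 0.27 (0.26 to 0.28).

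The other listed lncRNAs spread around the median. Neat1 had 4236 UMIs in nuclei and 5850 in low-UMI barcodes (0.33, interval 0.27 to 0.38), and was at -0.018 when shares were averaged over barcodes. By depth, Neat1 was at 2443 CPM in low-UMI barcodes and 2332 at over 750 to 1000 UMIs. It was at 2932 CPM at over 1000 to 1500 and 3953 in nuclei of over 1500. Kcnq1ot1 had 330 and 342 UMIs (0.74, interval 0.52 to 0.96). It was at 143 CPM in low-UMI barcodes, 153 at over 750 to 1000 UMIs, 182 at over 1000 to 1500 and 382 in nuclei of over 1500. Of its 31-base words 3.27% occur in other genes, and 8158 other genes share at least 1 of them. Xist had 2004 and 3684 UMIs, a log2 ratio of -0.087, which is 0.093 relative to the protein-coding median and 0.50 against barcodes of 51 to 100 UMIs. H19, an imprinted RNA found in the cytosol as well, had 365 and 943 UMIs (-0.58). Meg3 had 0 and 4 UMIs, too few for a ratio. Over the list of 19 tested nuclear and other lncRNAs, 1 was past the fold towards nuclei, Airn with 40 against 20 UMIs (1.79), and 2 towards low-UMI barcodes, Dnm3os (-1.34) and Mir17hg (-1.02), with a median of -0.26 against -0.19 over all genes. Airn is the antisense transcript of the imprinted Igf2r region.

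The lncRNAs that host small nucleolar RNAs in their introns lay on the other side. All 13 tested were below the protein-coding median, with a median of -0.74 (interval -1.05 to -0.47), and 4 of 13 were past the fold, Snhg3 (-1.52), Snhg5, Snhg20 (-1.05) and Snhg1. Snhg5 had 157 UMIs in nuclei and 569 in low-UMI barcodes (-1.06), Snhg1 had 129 and 447, just past the fold, and Gas5 had 112 and 345 (-0.83). The spliced RNA of Gas5 is known to be degraded when it is translated. In barcodes used by neither pool the list median was -0.24 against -0.086 over all genes. The snoRNA class itself had 50 UMIs in nuclei and 206 in low-UMI barcodes, a log2 ratio of -1.25 (-1.73 to -0.80) that was 0.075 against barcodes of over 100 to 500 UMIs, and no gene of the short RNA list reached 50 UMIs. Snord13 had 1 and 21 UMIs.

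Among mRNAs, genes for chromatin proteins had the highest list median in these pools. In barcodes used by neither pool it was 0.012, below those of mitosis genes (0.11) and histone genes (0.22). Of 84 chromatin regulators 75 were above the protein-coding median, with a list median of 0.26 (interval 0.19 to 0.33), 0.44 relative to that median, and 0 in either direction were past the fold. Atrx, a chromatin remodeller, had 1860 UMIs in nuclei and 1761 in low-UMI barcodes (0.87). Baz1b had 1055 and 1069 (0.77), and Chd4, of the NuRD complex, had 802 and 1194 (0.22). Against barcodes of over 100 to 500 UMIs, Baz1b was at -0.016 and Chd4 at -0.13. The separation depended on the low-UMI range, with medians of 0.36 against barcodes of 11 to 50 UMIs, 0.070 against 51 to 100 and 0.0025 against over 100 to 500. The median of their longest annotated transcripts was 8320.5 nt, against 4708 nt over all genes tested.

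Mitosis genes had a median of 0.18 over 55 genes, 39 of them above the protein-coding median, with 2 past the fold towards nuclei, Cenpe and Kif14 (1.05), and 1 towards low-UMI barcodes, Kifc1 (-1.23). Mki67, the proliferation marker, had 1405 and 1330 UMIs (0.87, interval 0.76 to 0.98). Cenpf had 927 UMIs in each pool (0.79), and Cenpe, a kinetochore motor, had 721 and 567 (1.14). At the other end Ube2c, which loads ubiquitin for the anaphase-promoting complex, had 72 and 240 UMIs (-0.94). The mitosis list thus spread from -1.23 to 1.14. Mki67 also differed between barcodes of over 500 to 750 and over 100 to 300 UMIs (0.32, interval 0.23 to 0.42). DNA replication genes had a median of -0.41, with 0 of 46 past the fold towards nuclei and 4 towards low-UMI barcodes, Rfc3 (-1.21), Gins2 (-1.12), Cdc6 (-1.10) and Chaf1b (-1.04). The more abundant Clspn, a checkpoint protein, was at 0.53 and Rfc2, a clamp loader subunit, at -0.32. Of 10 replication-dependent histone genes 1 was past the fold, H2ac24 at 1.44 (205 and 130.5 UMIs), and a single nucleus held 38.0 of its UMIs, without which it was at 1.15. H2ac24 was found in 3.21% of nuclei. It was at 54.5 CPM in low-UMI barcodes, 53.1 at over 750 to 1000 UMIs, 63.8 at over 1000 to 1500 and 325 in nuclei of over 1500, so its ratio came from the deepest nuclei. H1f4, a linker histone, had 1700 and 1860 UMIs (0.66).

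Genes for splicing factors were split. The 45 SR and speckle genes had a median of -0.18, with 22 above the protein-coding median and 23 below it. None was past the fold towards nuclei and 1 was towards low-UMI barcodes, the cold-inducible Rbm3 (-1.19). Srrm2, a scaffold of nuclear speckles, had 4330 and 4943 UMIs (0.60), and Rbm25 had 3076 and 3631 (0.55), while Ddx5, an RNA helicase, had 2030 and 4110 (-0.23). Against barcodes of over 100 to 500 UMIs, Srrm2 turned to -0.18 and Rbm25 to -0.27. Ddx5 was at 0.013 against those of 51 to 100. Zinc finger genes named Zfp had a median of -0.048 over 145. Towards nuclei 2 were past the fold, Zfp407 (1.10) and Zfp281 (1.01), and 8 towards low-UMI barcodes, near the 1.20% and 6.20% over all genes.

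Nuclear-encoded oxidative phosphorylation genes had the lowest list median in these pools, -0.81 (interval -0.91 to -0.68), and 60 of 68 were below the protein-coding median. Towards low-UMI barcodes 16 of 68 were past the fold, and 0 towards nuclei. Atp5b, of ATP synthase, had 221 and 583 UMIs (-0.60), and Cyc1, of complex III, had 179 and 479 (-0.63). The median was -0.78 against barcodes of 11 to 50 UMIs, -0.54 against 51 to 100 and -0.039 against over 100 to 500. In barcodes used by neither pool it was -0.20 against -0.086 over all genes, and mitochondrial mRNAs (-0.31), DNA replication genes (-0.26), snoRNA hosts (-0.24) and ER chaperones (-0.22) were lower.

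Other cytosolic groups lay between. Proteasome subunits had a median of -0.58, with 5 of 32 past the fold towards low-UMI barcodes, Psmb2 (-1.94), Psmb4 (-1.31), Psma6 (-1.27), Psmc6 (-1.12) and Psmd9 (-1.08), and 0 towards nuclei. Cytosolic ribosomal protein genes had a median of -0.40, with 8 of 61 past the fold towards low-UMI barcodes and 1 towards nuclei, Rps23 (1.40), and many of them have processed copies in the genome. The median turned to 0.12 against barcodes of over 100 to 500 UMIs. Rpl41 had 510.5 and 1349 UMIs (-0.61) and Rpl8 had 562 and 1259 (-0.37). Translation factors had a median of -0.48, with 2 of 34 past the fold towards low-UMI barcodes, Eif3m and Eif3h (-1.03), near the 6.20% over all genes. They ran from Eif3m at -1.13 to Eif3a, the largest subunit of its complex, at 0.28. Eif3a turned to -0.36 against barcodes of 1 to 10 UMIs. Glycolysis enzymes had a median of -0.17 and 0 of 15 past the fold in either direction. Gapdh had 126 and 217 UMIs (0.0075), but STAR counted 15 UMIs in the same nuclei and 29.4% of its 31-base words are found in other genes, so its level is uncertain. Immediate early and heat shock genes had a median of -0.24 (interval -0.47 to -0.037), with 0 of 31 past the fold towards nuclei and 3 towards low-UMI barcodes, Klf10 (-1.70), Dusp6 (-1.34) and Hspe1 (-1.31), and Hsp90ab1 had 880 and 1528 UMIs (-0.0043). This median also turned to 0.12 against barcodes of over 100 to 500 UMIs.

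Secreted and membrane proteins are made at the rough endoplasmic reticulum, which is joined to the nuclear envelope, and their mRNAs are bound there. The 45 extracellular matrix and secreted protein genes had a median of -0.098 (interval -0.21 to 0.045), 0.082 relative to the protein-coding median, with 0 past the fold towards nuclei and 1 towards low-UMI barcodes, the protease inhibitor Timp1 (-1.04). Fibrillar collagen chains lay near the median or above it: Col1a2 had 2956 and 3990 UMIs (0.36, interval 0.29 to 0.43), Col1a1 had 655 and 1150 (-0.020) and Col3a1 had 738 and 1442 (-0.17). Col1a2 was at -0.12 against barcodes of 51 to 100 UMIs. Fn1, fibronectin, had 1099 and 1961 UMIs (-0.043), and Sparc, a matrix glycoprotein, had 154 and 412 (-0.63). None of the 16 collagen genes was past the fold. Membrane receptors and adhesion proteins had a median of -0.16, and 0 of 43 were past the fold towards nuclei and 1 towards low-UMI barcodes, the tetraspanin Cd9 (-1.43). Solute carriers had a median of -0.28, with 0 of 96 towards nuclei and 7 towards low-UMI barcodes, near the 6.20% over all genes.

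Genes for the machinery of that compartment had a lower median. ER chaperone and translocon genes had a median of -0.48 (interval -0.70 to -0.24), with 4 of 32 past the fold towards low-UMI barcodes, Sec61a1, Ddost (-1.42), Plod1 (-1.18) and Kdelr2, and 0 towards nuclei. Sec61a1, the pore of the translocon, had 114 and 691 UMIs (-1.81), and Rrbp1, a ribosome-binding ER membrane protein, had 2341 and 3265 (0.31), or -0.10 against barcodes of 51 to 100 UMIs. Sec61a1 was at -2.07 against barcodes of 11 to 50 UMIs and at -0.26 against those of over 100 to 500.

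The actin cytoskeleton list spread from Tmsb4x, an actin monomer-binding protein with 53 and 237 UMIs (-1.37), to the linker protein Dst. Pfn1 had 131 and 480 UMIs (-1.08), while Tmsb10 was at -0.43 and Arpc2 at 0.038. Actb itself had 806 and 2600 UMIs (-0.90, interval -1.01 to -0.78). Dst had 3127 and 2866 UMIs (0.92), Plec 4319 and 4562 (0.71) and Ahnak 2760 and 3455 (0.47), while the large linkers Flna and Tln1 were at -0.25 and -0.038. Plec turned to -0.40 against barcodes of 1 to 10 UMIs. Over the 51 genes the median was -0.25, and 5 were past the fold towards low-UMI barcodes, the others being Acta2 (-1.09), Cnn3 (-1.06) and Myl9 (-1.03), and 0 towards nuclei. Actb was at -1.10 against barcodes of 11 to 50 UMIs and 0.071 against those of over 100 to 500, and Dst was at 1.15 and 0.20.

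**Figure D3:**
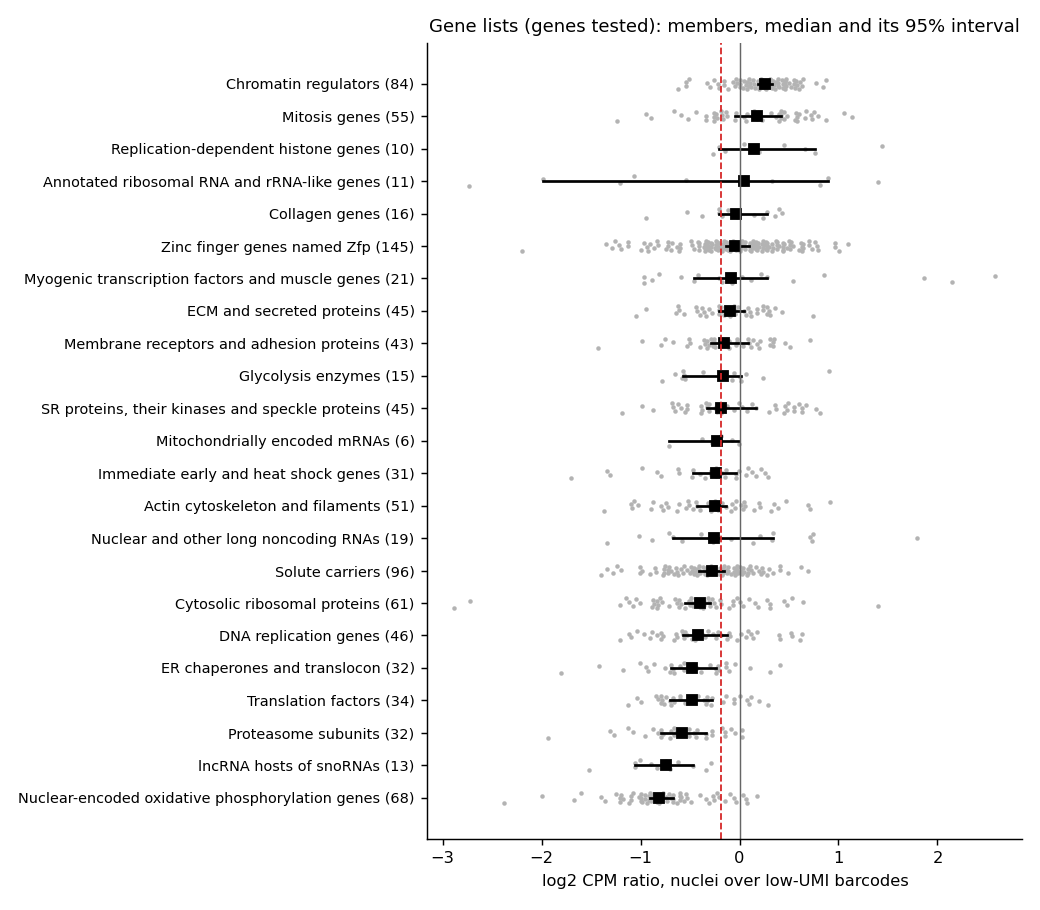
Log2 CPM ratio of nuclei over low-UMI barcodes (horizontal axis) for the tested members of each list (grey points; the vertical offset within a row only separates points), with the median as a square and its 95% order-statistic interval over genes as a line; the dashed line is the median of all genes tested, -0.19. Chromatin regulators (0.26) and oxidative phosphorylation genes (-0.81) mark the ends.

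Muscle genes stood out by single genes rather than as a list. The 21 tested had a median of -0.083, with 3 past the fold towards nuclei and 0 towards low-UMI barcodes: Ttn, Myh3 and Neb, which encode titin, embryonic myosin heavy chain and nebulin of the sarcomere. Ttn had 2328 UMIs in nuclei and 1108 in low-UMI barcodes (1.86, interval 1.76 to 1.97). A UMI of Ttn was found in 413 nuclei, 36.8% (exact binomial interval 33.9 to 39.7), and the 56 nuclei with the most held 64.7% of its UMIs, up to 83 in 1 nucleus. Neb had 52 and 15 UMIs (2.59) and was found in 19 nuclei, and Myh3 had 77 and 30 (2.15) and was found in 22. Neb and Myh3 had fewer than 200 UMIs. By contrast, the 56 nuclei with the most Des UMIs held 31.9% of them. By depth, Ttn was at 445 CPM at 11 to 100 UMIs, 2061 CPM at over 750 to 1000 UMIs and 1109 CPM in nuclei of over 1500 UMIs.

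The 12 genes with the highest ratios among those with at least 200 UMIs were Gm17132 (2.31), Gm47164 (2.31), Vmn1r168 (2.23), Gm15807 (2.04), Ttn (1.86), Gm47840 (1.78), Emp2 (1.63), Zbed6 (1.62), ENSMUSG00000115801 (1.48), H2ac24 (1.44), Gm19220 (1.40) and Pde4dip (1.30). Against barcodes of over 100 to 500 UMIs, Ttn was at 0.70 and Gm47840 at -0.052, and of the 26 named genes past the fold in either direction 5 stayed past it. The 56 nuclei with the most UMIs of a gene held from 34.0% (ENSMUSG00000115801) to 100% (Gm47164, Gm15807 and H2ac24) of them. A value of 100% is built in for genes found in fewer than 56 nuclei, as these were. Among the 12 lowest genes the range was 19.6% (mt-Rnr2) to 100% (Gm42826 and others). Gm47164 was found in 4.01% of nuclei. It was at 48.0 CPM in low-UMI barcodes, 65.9 at over 750 to 1000 UMIs and 506 in nuclei of over 1500. Several of the 12 are not clear as single genes. Gm17132 had 252 and 88 UMIs and shares 76.4% of its 31-base words with other genes, Zbed6 lies within Zc3h11a and shares 36.9%, and H2ac24 shares 93.4% with other histone genes. In 8 of the 12, STAR counted fewer than 0.1 times the kallisto UMIs in the same nuclei, with 0 for Gm17132, Gm47164, Gm15807, Gm47840 and Zbed6. The same held for 29 of the 93 genes past the fold towards nuclei and for 307 of all 7739 tested. The genes next in order were Ahnak2 (1.29), Golga4 (1.18), Mical3 (1.18), Numa1 (1.17) and Cenpe (1.14), several of which encode large proteins of the Golgi or the spindle.

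The 12 lowest were Gm42826 (-2.73), Olfr607 (-2.59), Gm10826 (-2.50), Gm37490 (-2.23), Zfp395 (-2.20), mt-Rnr2 (-1.98), Gm43503 (-1.98), Olfr152 (-1.86), Sec61a1 (-1.81), Zc3h13 (-1.61), Gm45483 (-1.60) and D130062J10Rik (-1.57). Of these, 5 are marked TEC, and STAR counted fewer than 0.1 times the kallisto UMIs for 8 of the 12. The same held for 79 of the 480 genes past the fold towards low-UMI barcodes, against 307 of all 7739 tested. Gm42826 had 75 UMIs in nuclei and 862 in low-UMI barcodes, and STAR counted 3 in the same nuclei. Zc3h13 shares no 31-base word with another gene and had 511 and 2700 UMIs. Zfp395 had 72.5 and 575 UMIs, and STAR counted 798 for it in the same nuclei. Over all genes STAR counted 6237950 UMIs in these nuclei and kallisto 1382984, so the counts of the 2 tools are not on 1 scale.

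For the 12 highest and the 12 lowest genes, barcodes used by neither pool gave the same directions. Comparing over 500 to 750 with over 100 to 300 UMIs, all of the 12 highest were positive, 9 with an interval above 0, and all of the 12 lowest were negative, 7 with an interval below 0. Sizes were smaller: Ttn was at 0.58 (0.49 to 0.67), Zbed6 at 0.59, Zc3h13 at -0.46 (-0.61 to -0.30) and Gm42826 at -0.89 (-1.36 to -0.45). Other named genes did not all keep their direction. Mki67 (0.87 in the pools) was at 0.32 and Dst (0.92) at 0.29. Chd4 (0.22 in the pools) was at -0.14 (-0.27 to -0.0084) and Srrm2 (0.60) at -0.024 (-0.078 to 0.029). Over 7185 protein-coding genes, the rank correlation of this ratio with that of the pools was 0.26, a description across genes that share library and depth.

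Transcript length went with the ratio. Across quartiles of the longest annotated transcript, the median log2 ratio of protein-coding genes was -0.38 (390 to 3476 nt), -0.23 (3477 to 4779 nt), -0.13 (4781 to 6531 nt) and 0.025 (6533 to 123193 nt). Genes past the fold towards low-UMI barcodes numbered 184, 94, 70 and 45 in these quartiles, and towards nuclei 11, 9, 15 and 35. In barcodes used by neither pool the medians were -0.17, -0.12, -0.069 and -0.015. The last quartile was also above the first for genes with fewer UMIs (-0.41 in the first quartile and -0.054 in the last) and for those with more (-0.35 and 0.068). Spearman's rho over 7412 genes was 0.33 for transcript length, 0.29 for exon number and 0.32 for gene length, 0.10 for the longest run of A and 0.014 for GC content, across genes and not independent of each other. In barcodes used by neither pool it was 0.18 for transcript length, 0.080 for exon number, 0.20 for gene length, 0.12 for the run of A and -0.15 for GC content, over 7185 genes. Lengths and exon numbers were those of the longest annotated transcript of each gene, which need not be the RNA captured. For Vim that transcript had 1 exon of 2926 nt. The list medians did not follow the median of this length throughout. It was 2804.5 nt in oxidative phosphorylation genes (-0.81) and 8320.5 nt in chromatin regulators (0.26), but 742 nt in replication-dependent histone genes (0.15), 1951 nt in ribosomal protein genes (-0.40), 4371 nt in mitosis genes (0.18) and 6103 nt in membrane receptors (-0.16). The part of length in the list medians was not tested.

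**Figure D4:**
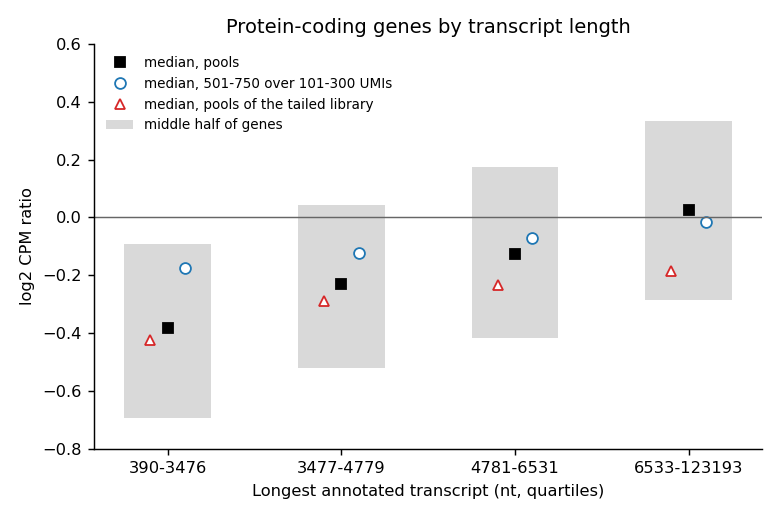
Median log2 CPM ratio (vertical axis) of protein-coding genes in quartiles of longest annotated transcript length in nt (horizontal axis), for nuclei over low-UMI barcodes (squares, with a grey bar from the lower to the upper quartile of genes), for barcodes of over 500 to 750 set against those of over 100 to 300 UMIs (circles) and for the pools of the in situ polyadenylated library (triangles). In the pools the medians run from -0.38 to 0.025.

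In the in situ polyadenylated library the same pools gave values to set beside these. It held 1335 nuclei and 229964 low-UMI barcodes. Mt-Rnr2 was at -1.31 there, Ttn at 1.49, Zc3h13 at -0.51 and Sec61a1 at -2.31. Of the 4 highest genes of the standard library, Gm17132 was at -0.060, Gm47164 at -1.10, Vmn1r168 at -0.31 and Gm15807 at 0.0091. Malat1 was at -0.68, Neat1 at -0.21 and Xist at -0.88. The oxidative phosphorylation median was -1.70 and the chromatin regulator median 0.18, while the mitosis median was -0.26 and the histone median -0.45. The libraries differed in the enzyme step, the incubation and the wash, each in 1 library, and these cannot be told apart.

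Barcodes of 1 to 10 UMIs differed from the other low-UMI barcodes in a small set of RNAs. Of genes with at least 20 UMIs there, 12 were at least 10-fold higher in CPM than in barcodes of 11 to 100 UMIs, a rule chosen after the values were seen. Apoa4 had 145 UMIs in barcodes of 1 to 10, 6 in those of 11 to 100 and 0 in nuclei. Fabp1 had 139, 5 and 0, Apoa1 had 90, 2 and 0, and Rbp2 had 44, 0 and 0. These are known for lipid and retinoid handling in the intestine and liver. Fabp2, Apoc3, Tff3, Defa24, Spink1 and Lgals4 are also known from the gut, and Hbb-bs, a beta globin, had 29, 0 and 0. The last of the 12 was the mitochondrial mRNA mt-Co1, with 34, 41 and 41 UMIs, and Lgals4 had 32, 22 and 7, so both were also found in deeper barcodes.

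The 12 genes together had 691 UMIs in barcodes of 1 to 10, 0.388% of UMIs there, in 679 of 157243 barcodes with at most 3 UMIs in any. They had 81 UMIs in barcodes of 11 to 100 and 264 in those of over 100, of which mt-Co1 gave 178 and Lgals4 77. Of the low-UMI UMIs of globin genes, all 29 of Hbb-bs, 6 of Hbb-bt and 7 of Hba-a2 and 10 of the 12 of Hba-a1 were in barcodes of 1 to 10, and 0 were in nuclei. Of the 480 genes, 3 were at 0 in nuclei, and all were from this set: Apoa4 was at least 29.1-fold higher in low-UMI barcodes, Fabp1 at least 27.7-fold and Apoa1 at least 17.7-fold, taking 3 UMIs as the limit that 0 allows. In the in situ polyadenylated library the same 12 genes had 1871.5 UMIs in barcodes of 1 to 10 and 79 in nuclei. Where this RNA came from was not tested.

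**Figure D5:**
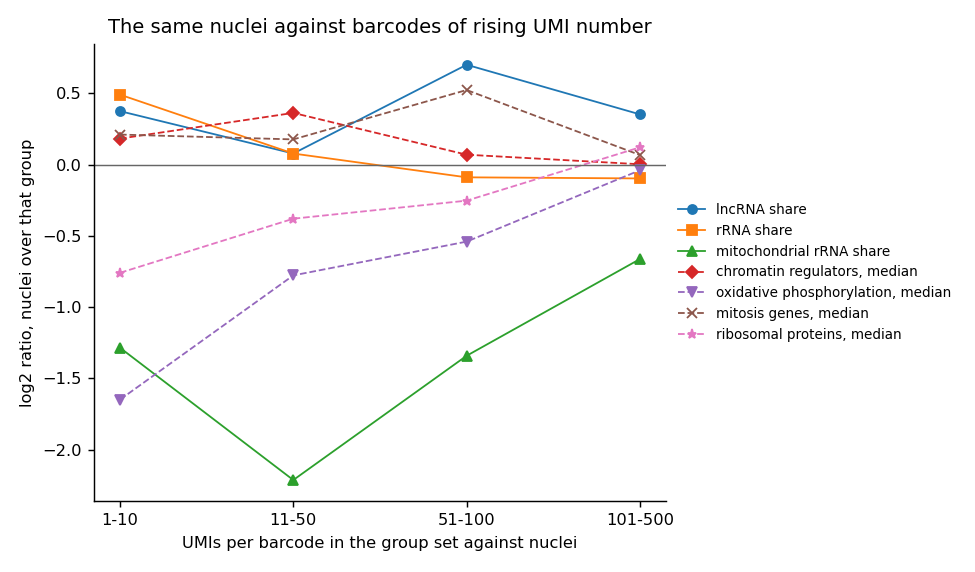
Log2 ratio (vertical axis) of the same 1123 nuclei over barcodes of 1 to 10, 11 to 50, 51 to 100 and over 100 to 500 UMIs (horizontal axis), for the summed share of 3 RNA classes (solid lines) and the medians of 4 gene lists (dashed lines). The oxidative phosphorylation median runs from -1.65 to -0.039, and the mitochondrial rRNA share is lowest, at -2.21, against barcodes of 11 to 50 UMIs.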

How the data were processed

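Nuclei of C2C12 cells were permeabilized with Triton-X100, fixed in methanol, and sequenced on the Chromium platform. The submitters' processing notes name cutadapt 3.4, kallisto 0.48.0, bustools 0.41.0 and STAR 2.7.10a, and the methods give GRCm39 with GENCODE M28. The authors deposited kallisto matrices of estimated counts, in which reads that fit several genes are split (2.65% of entries of the standard library were not whole), and STAR matrices of whole counts for fewer barcodes. The kallisto estimated counts were used unrounded for all ratios, and the deposited STAR counts as a check of single genes in the same nuclei. In these nuclei STAR counted 6237950 UMIs in all and kallisto 1382984, and STAR values are printed unscaled.

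UMIs were summed over barcodes with more than 750 UMIs and over those with 1 to 100. Genes with at least 50 UMIs in both pools were compared by their CPM, with 2-fold as the limit for counting a gene. Intervals are exact conditional Poisson for ratios, exact binomial for shares and order-statistic for medians, at 95%. Bounds for genes at 0 take 3 UMIs in that pool as the limit. With 1 library per group there was no replicate test. The annotation of 54749 of 55414 genes, transcripts and sequences came from GENCODE M39, not the M28 of the deposited counts. No doublet caller was run, and an alternative dropped the top 5% of nuclei by UMIs. Named genes were the 12 highest and 12 lowest with at least 200 UMIs, the most abundant gene of each pool, genes chosen by name (such as Malat1, mt-Rnr2 and Actb), and the 3 members with most UMIs of each list; others, such as list extremes, were named after their values were seen. Members and gene lists were chosen with earlier results of these data known. Low-UMI ranges of 11 to 50 and 51 to 100 UMIs, nuclei of over 750 to 1500 UMIs and ratios without the nucleus with the most UMIs of a gene were added after seeing the data. Scripts used python 3.11.15, numpy 2.4.6, pandas 2.3.3, scipy 1.17.1 and matplotlib 3.10.9 and were tested on simulated data.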

Additional observations from a re-analysis of the deposited data

Results flagged for a closer look

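Of 92 named genes compared in both libraries, 8 had log2 ratios of opposite sign with both intervals clear of 0, and in 2 of them both ratios were at least 0.5 from 0. The difference between the libraries was not tested, since each had 1 sample.

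Gm47164 was at 2.31 (2.00 to 2.63) in the standard library, with 329 UMIs in nuclei and 115 in low-UMI barcodes, and at -1.10 (-1.56 to -0.66) in the in situ polyadenylated library, with 62.5 and 139 UMIs. Kcnq1ot1 was at 0.74 (0.52 to 0.96) in the standard library and at -1.16 (-1.63 to -0.69) in the other, with 56.9 and 132 UMIs. Gm47164 and Kcnq1ot1 share the 70-base stretch printed above.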

How the results depend on the processing

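Class shares, counts past the fold and list medians moved with the barcodes set against nuclei, and the counts moved further with the gene minimum, the fold limit and averaging over barcodes. No paired analysis was possible because there was a single library of each kind. Counting with STAR on both sides was not run, since 22 barcodes with 1 to 100 UMIs were in that table and 50 were needed. Values are log2 ratios unless called genes. Of 26 named genes past the fold, 25 kept their direction against over 100 to 500 UMIs and 5 stayed past the fold, while all 26 did against 11 to 50 UMIs. Of 95 named genes, most of them not past the fold, 44 had the opposite sign under at least 1 alternative. A limit of 5% mitochondrial UMIs removed no nucleus.

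Against 1 to 10 UMIs, 175 genes were higher in nuclei, and ratios were -0.26 for protein-coding, 0.38 for lncRNA, rRNA at 0.49, -1.29 for mitochondrial rRNA, -0.33 for processed pseudogenes (0.34 in the pools), 0.18 for chromatin regulators and -1.65 for oxidative phosphorylation. Against 11 to 50 UMIs, 189 genes were higher, with protein-coding at -0.025, lncRNA at 0.078, rRNA at 0.078, -2.21 for mitochondrial rRNA, 0.36 for chromatin regulators and 0.64 for mitochondrial mRNAs. Against 11 to 100 UMIs, protein-coding was at -0.041, lncRNA at 0.25, rRNA at 0.022 and mitochondrial mRNAs at 0.27. Against 51 to 100 UMIs, 76 genes were higher in low-UMI barcodes, with protein-coding at -0.075, lncRNA at 0.70, 0.20 for lncRNA without Malat1, -0.089 for rRNA, -1.34 for mitochondrial rRNA, 0.23 for TEC, 0.070 for chromatin regulators and -0.54 for oxidative phosphorylation. Against over 100 to 500 UMIs, 65 genes were higher there, with protein-coding at -0.023, lncRNA at 0.35, 0.24 without Malat1, -0.097 for rRNA, -0.66 for mitochondrial rRNA, 0.44 for TEC, 0.075 for snoRNA, 0.0025 for chromatin regulators, 0.12 for immediate early and heat shock genes, 0.12 for ribosomal proteins, -0.039 for oxidative phosphorylation, 0.050 for mitochondrial mRNAs and -0.052 for Gm47840.

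With nuclei of at least 500 UMIs, protein-coding was at -0.069, lncRNA at 0.19, rRNA at 0.11 and mitochondrial rRNA at -1.85. With at least 1500 UMIs they were at -0.0036, 0.34, -0.11 and -2.13, lncRNA without Malat1 at 0.071 and oxidative phosphorylation at -0.59. With nuclei of over 750 to 1500 UMIs the 4 classes were at -0.087, 0.22, 0.13 and -1.86, and with the barcodes of the STAR table at -0.046, 0.11, 0.096 and -1.70. Without the 5% of nuclei with the most UMIs, protein-coding was at -0.076, lncRNA at 0.25 and rRNA at 0.091. Averaging shares over barcodes gave 249 genes higher in nuclei and 1029 lower, with -0.22, 0.29, 0.42 and -1.48 for the 4 classes, -0.29 for processed pseudogenes and -1.36 for oxidative phosphorylation. Setting the median protein-coding gene to 0 gave 188 and 275 genes, with 0.12, 0.44, 0.23 and -1.77 for the classes, 0.021 for lncRNA without Malat1, 0.44 for chromatin regulators and -0.63 for oxidative phosphorylation. Without rRNA, mitochondrial and Malat1 UMIs protein-coding was at 0.0015. A gene minimum of 20 UMIs gave 214 and 1098 genes and one of 200 gave 24 and 82. A 1.5-fold limit gave 425 and 1635 genes, and a 4-fold limit 14 and 42. Beyond the built-in effects of these limits, the cause was not tested.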
